A study of Mus musculus with 5 samples.

Results

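Transcripts of 10 histone deacetylase and NuRD corepressor genes were followed in mouse liver tumors with and without Prox1 overexpression. The rule took them by name, as corepressors known to work with PROX1, and used no measured value, although it was proposed when earlier results of these data were known. The set held the deacetylases Hdac1, Hdac2 and Hdac3 and the NuRD subunits Chd4, Mta1, Mta2, Mta3, Gatad2a, Gatad2b and Mbd3. All 10 were found among the 55397 listed genes, and all 10 were among the 17105 genes with enough reads to be tested.

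Histone deacetylases remove acetyl groups from histone tails, which is known to favor compact, silent chromatin. HDAC1 and HDAC2 share several large complexes, of which NuRD also contains a CHD remodeling ATPase, MTA scaffold proteins, the histone-binding RBBP proteins, a GATAD2 linker and an MBD protein. HDAC3 instead works mainly in NCoR complexes. Transcription factors such as the homeodomain protein PROX1 recruit such complexes to the genes they repress.

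Bulk RNA-seq was made from whole dissected liver tumors from female C57BL/6N mice, with 2 Control and 3 Prox1 OE libraries. All mice received plasmids for Akt and the Notch intracellular domain (NICD) by hydrodynamic tail vein injection at 8 weeks of age, a combination that produces tumors resembling cholangiocarcinoma. Both groups also received Sleeping Beauty transposase to integrate the plasmids and doxycycline in the diet (6.25%) from day 21, and the NICD plasmid carried rtTA, the activator that doxycycline switches on. Akt and NICD stood behind the EF1a promoter, which is active in most cell types. The groups differed in the plasmid behind the doxycycline-responsive Tre promoter, which carried FLAG-tagged mouse Prox1 with GFP in the Prox1 OE group and GFP alone in the Control group, with overexpression from week 3 to week 4. Tumors were taken after that week or at the humane endpoint, and the labels do not say which applied to which tumor. Nor do they tie libraries to separate mice, so that p-values measure the spread between these 5 libraries. In whole tumors, fewer cells of a type and less RNA per cell cannot be told apart.

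Recovered depth was 48740863 to 56629477 reads per library, and every member had at least 1268 normalized counts (reads divided by a size factor of the library) in every library. The label cell type is transformed hepatocytes, and no hepatocyte or cholangiocyte marker examined was at 0. Of 8 hepatocyte markers, 6 were called higher in Prox1 OE, with summed levels of 1176560 to 1704800 normalized counts in Control and 3391990 to 4937660 in Prox1 OE. Of 6 cholangiocyte markers, 5 were called lower, with sums of 751337 to 820215 in Control, most of it Spp1, and 520362 to 703049 in Prox1 OE. Of 7 stellate cell and fibroblast markers, 3 were called lower and 1 higher, with sums of 110550 to 118724 in Control and 64474 to 75182 in Prox1 OE. Of 6 Kupffer cell and macrophage markers, 1 was called higher, with sums of 7589 to 8609 against 12090 to 17720. Of 6 endothelial markers, 2 were called higher and 3 had log2 differences below 0 that were not called, with sums of 7710 to 9943 against 9676 to 14007. Lymphocyte markers stayed low, at sums of 143 to 173 against 303 to 400, with 3 of the 6 tested called higher. The part of this shift in cell type markers in the results that follow was not tested.

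Prox1 itself (chr1:190118035-190170714, minus strand) was read first, since it checks the labels. Normalized counts of Prox1 were 4153 and 4664 in the Control libraries (replicates 1 and 2) and 48090, 11113 and 8231 under overexpression (replicates 1 to 3). The groups did not overlap, and replicate 1 of the overexpressing tumors stood far above the rest. Prox1 OE minus Control came to 1.90 on the log2 scale (SE 0.66, limma adjusted p 0.061). Without Prox1 OE replicate 1 it was 1.12, with a limma adjusted p of 0.0055.

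The question for the corepressor genes was whether their transcripts differed between the groups. Gatad2b and Mta1 were lower in Prox1 OE by a limma test adjusted over all 17105 genes at a threshold of 0.05, and no member passed it in the higher direction. Across all genes, 16.2% were called lower, 17.1% higher and 33.3% in either direction, so that 2 of 10 members called lower is a share near the background. At an unadjusted limma p under 0.05, 5 members were lower and 1 was higher, where 22.9% of all genes were lower and 22.8% higher at that p. On recovered reads, edgeR called 2 lower and 0 higher, and DESeq2 called 2 lower and 1 higher. The members' median log2 difference was -0.24, against -0.02 over all genes tested. The libraries of the 2 groups did not overlap on the deposited size factors for 7 members, 6 of them lower and 1 higher in Prox1 OE, where 63.3% of all genes tested had groups that did not overlap.

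**Figure D1:**
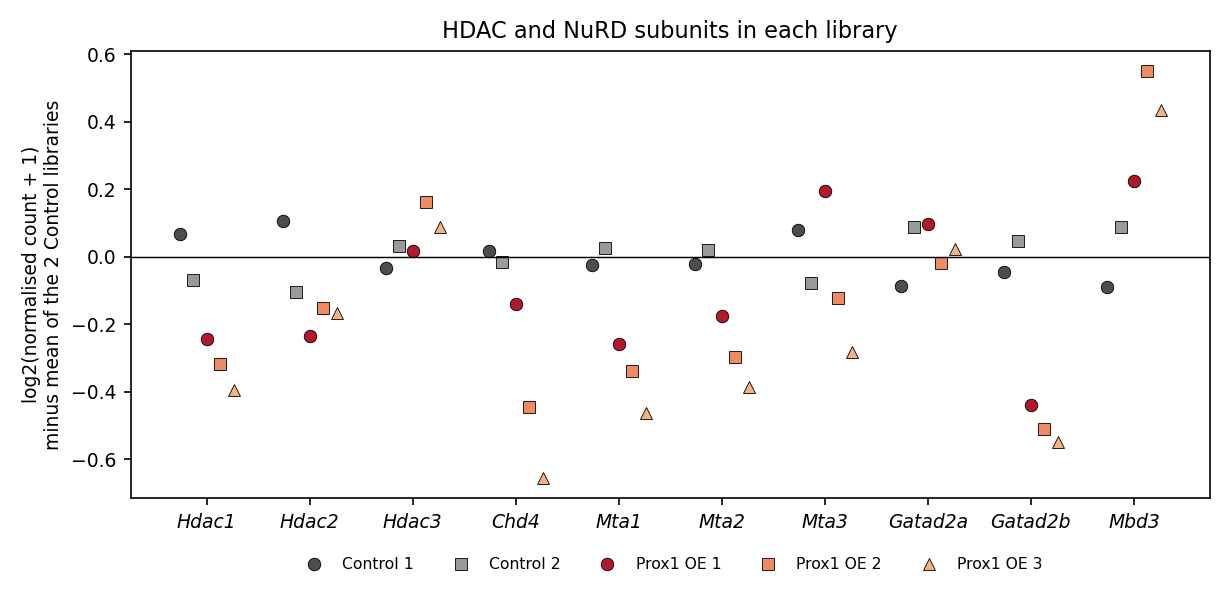
Each point is 1 library, plotted as log2(normalized count + 1) minus the mean of the 2 Control libraries for that gene, on the deposited size factors, with Control in grey and Prox1 OE in red and orange. All 3 Prox1 OE libraries lie below both Control libraries for Hdac1, Hdac2, Chd4, Mta1, Mta2 and Gatad2b and above both for Mbd3, while Hdac3, Mta3 and Gatad2a overlap.

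Upstream sequence is shown for Gatad2b, the member with the largest difference, its paralog Gatad2a, which was not called, and Mbd3, the member above Control in every Prox1 OE library. The stretches come from RefSeq (GRCm38.p6) and end at the annotated start of the gene. Capitals mark matches, on either strand, to the GC box GGGCGG, the CCAAT box CCAAT and the TATA box TATAAA. The Gatad2b stretch is chr3:90292931-90293177 on the plus strand, the Gatad2a stretch chr8:69996385-69996634 on the minus strand and the Mbd3 stretch chr10:80399551-80399781 on the minus strand.
Gatad2b: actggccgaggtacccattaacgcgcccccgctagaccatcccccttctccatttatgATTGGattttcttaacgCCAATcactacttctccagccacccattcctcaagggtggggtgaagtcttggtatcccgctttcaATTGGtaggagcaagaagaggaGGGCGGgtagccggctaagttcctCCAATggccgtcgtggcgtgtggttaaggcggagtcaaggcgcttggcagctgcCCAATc
Gatad2a: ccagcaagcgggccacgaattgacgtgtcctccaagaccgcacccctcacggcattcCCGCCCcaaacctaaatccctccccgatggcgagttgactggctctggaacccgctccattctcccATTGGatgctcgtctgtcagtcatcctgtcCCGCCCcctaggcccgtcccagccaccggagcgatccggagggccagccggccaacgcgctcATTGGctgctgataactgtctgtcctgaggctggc
Mbd3: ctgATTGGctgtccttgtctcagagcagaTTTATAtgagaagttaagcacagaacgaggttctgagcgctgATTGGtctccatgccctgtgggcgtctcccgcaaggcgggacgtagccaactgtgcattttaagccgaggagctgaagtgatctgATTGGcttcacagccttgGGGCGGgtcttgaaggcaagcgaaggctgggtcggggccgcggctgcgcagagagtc

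The CCAAT letters occurred 5 times upstream of Gatad2b, 2 times upstream of Gatad2a and 3 times upstream of Mbd3. They were in none of the other 4 member windows read (Hdac2, Chd4, Mta1 and Mta2), whereas the GC box was in all 7. The 7 member windows held 205 to 250 bases. Of all 32851 RefSeq windows, each of 250 bases before a start, 33.8% held CCAAT, 32.7% the GC box and 12.4% the TATA letters, which were found upstream of Mbd3 only among the 7. The 3 printed windows were chosen after the members' differences were seen, and a link between letters and differences was not tested. The ETS core CCGGAAG (6.91% of windows) and the E2F forms TTTGGCGC (0.417%) and TTTCCCGC (0.895%) were also searched on both strands and were in none of the 7. These matches describe the letters in each window and were not tested as sites.

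Among the deacetylases, Hdac1 and Hdac2 lay below Control in every Prox1 OE library without passing the test, and Hdac3 overlapped. Hdac1 (chr4:129516104-129542713, minus strand), a catalytic subunit of NuRD, SIN3 and CoREST, had 5325 and 4845 normalized counts in Control and 4287, 4076 and 3862 in Prox1 OE. Its log2 difference was -0.32 (SE 0.11, 95% interval -0.58 to -0.06), which was 80.2% of the Control level, with a limma adjusted p of 0.063. Without Prox1 OE replicate 1 the difference was -0.36 and passed (limma adjusted p 0.031). Processed pseudogenes of Hdac1 share much of its sequence, and the closest, Gm10093, is 99.4% identical over 1444 bases. Gm10093 had 24.6 and 25.4 normalized counts in Control and 9.20, 14.16 and 15.05 in Prox1 OE, so that reads assigned to it were few beside those of Hdac1.

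Hdac2 (chr10:36974544-37001889, plus strand), the close paralog of Hdac1, had 4607 and 3981 normalized counts in Control. The Prox1 OE libraries had 3642, 3856 and 3813, a narrow range just under the lower Control value. Its log2 difference was -0.18 (SE 0.11, 95% interval -0.45 to 0.08), with a limma adjusted p of 0.25. It rested on the Control libraries, at -0.08 without Control replicate 1 and -0.29 without Control replicate 2. Hdac3, on chromosome 18, the deacetylase that NCoR activates, had 4887 and 5114 normalized counts in Control and 5055, 5590 and 5313 in Prox1 OE. Its first Prox1 OE library lay between the Control libraries, and the log2 difference was 0.09 (SE 0.11, 95% interval -0.17 to 0.34, limma adjusted p 0.56).

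Chd4 (chr6:125095981-125130591, plus strand), the ATPase that slides nucleosomes for NuRD, had the widest spread of the members between Prox1 OE libraries on the log2 scale. It had 11285 and 11025 normalized counts in Control and 10117, 8191 and 7078 in Prox1 OE. The Control libraries were close together, and the Prox1 OE libraries ran from just below them to well below. The mean was 11155 ± 184 in Control (SD, n = 2) but 8462 ± 1537 under overexpression (SD, n = 3), a log2 difference of -0.41 (SE 0.16, 95% interval -0.79 to -0.03) with a limma adjusted p of 0.088. Without Prox1 OE replicate 1, the library nearest Control, the log2 difference was -0.55 and passed (limma adjusted p 0.012).

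The MTA scaffold proteins hold HDAC1 or HDAC2 in the complex. Mta1 (chr12:113098278-113137206, plus strand) was called lower, Mta2 had groups that did not overlap, and Mta3 overlapped. Mta1 had 2787 and 2885 normalized counts in Control and 2369, 2241 and 2054 in Prox1 OE, so that the highest Prox1 OE library lay clearly under both Control libraries. Its log2 difference was -0.35 (SE 0.11, 95% interval -0.62 to -0.09), or 78.2% of the Control level, with a limma adjusted p of 0.049. This call stood at the threshold and was lost without Prox1 OE replicate 2 (limma adjusted p 0.095) or Prox1 OE replicate 3 (0.11), and with TMM factors (0.058). The log2 differences were then -0.36, -0.30 and -0.33. It was also lost without Control replicate 1 or 2, with log2 differences of -0.38 and -0.33.

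Mta2 (chr19:8941875-8952303, plus strand), the most abundant of the 3 scaffold genes per length, had 5926 and 6094 normalized counts in Control and 5325, 4891 and 4596 in Prox1 OE. All 3 Prox1 OE libraries lay lower, and the log2 difference was -0.29 (SE 0.11, 95% interval -0.55 to -0.02, limma adjusted p 0.091). Without Prox1 OE replicate 1 it was -0.34 and passed (limma adjusted p 0.028). Mta3 (chr17:83706163-83821516, plus strand), the least abundant scaffold gene, had 1628 and 1460 normalized counts in Control and 1764, 1417 and 1268 in Prox1 OE. Prox1 OE replicate 1 lay above both Control libraries and the other Prox1 OE libraries below both. The log2 difference was -0.07 (SE 0.16, 95% interval -0.45 to 0.31, limma adjusted p 0.76), and it took the opposite sign under upper-quartile factors (0.01) and without Control replicate 1 (0.01) or Prox1 OE replicate 3 (0.04).

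The GATAD2 proteins link the deacetylase and MBD part of NuRD to the CHD remodeler. With all 5 libraries, their genes had the largest log2 ratio difference of the paralog pairs given below (0.53, against -0.47 for Mbd2 to Mbd3). Gatad2b (chr3:90293178-90363407, plus strand), with 5 CCAAT matches upstream, had 2307 and 2457 normalized counts in Control and 1757, 1671 and 1625 in Prox1 OE. The spread within each group was small beside the gap between them, at 2382 ± 106 (SD, n = 2) against 1684 ± 66.9 (SD, n = 3). Its log2 difference was -0.50 (SE 0.11, 95% interval -0.76 to -0.24), or 70.7% of the Control level, with a limma adjusted p of 0.014. It was the largest difference among the members on the deposited size factors with all 5 libraries, although Mbd3 (0.48) exceeded it with upper-quartile factors. The Gatad2b call stood under every scaling, filter and tool run. Leaving out Control replicate 1 (limma adjusted p 0.10) or Control replicate 2 (0.13) ended the call, with log2 differences of -0.55 and -0.45.

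Gatad2a (chr8:69907076-69996384, minus strand) had 3850 and 4343 normalized counts in Control and 4373, 4033 and 4156 in Prox1 OE. Its groups overlapped, with a log2 difference of 0.03 (SE 0.11, 95% interval -0.23 to 0.30, limma adjusted p 0.84). The sign turned without Control replicate 1 (-0.05). Antisense and other genes annotated across Gatad2b and Chd4 had 3.29 normalized counts or fewer in every library. Of these, Gm45477 and Gm45354 lie on the same strand as Gatad2b, over 5498 and 2557 bases of its span. How reads shared with them were counted is not known.

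Mbd3 (chr10:80392539-80399550, minus strand), the MBD subunit that binds methylated DNA poorly and is exclusive with MBD2 in the complex, was the only member whose Prox1 OE libraries all lay above both Control libraries. It had 4140 and 4679 normalized counts in Control and 5140, 6447 and 5952 in Prox1 OE. The log2 difference was 0.40 (SE 0.14, 95% interval 0.09 to 0.72), or 132% of the Control level, and fell short of the threshold (limma adjusted p 0.055). DESeq2 on recovered reads (adjusted p 0.041) and limma with upper-quartile factors (adjusted p 0.036) or without Prox1 OE replicate 1 (log2 difference 0.49, adjusted p 0.015) called it higher. Scaling by total count gave a difference of -0.03, where the median of all genes was -0.44.

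The library nearest the Control mean was Prox1 OE replicate 1, the one with the most Prox1 normalized counts, for 6 of the 7 members whose groups did not overlap. Hdac2 was the exception, with replicate 2 nearest and replicate 1 lowest. Without replicate 1, limma called 5 members lower (Hdac1, Chd4, Mta1, Mta2 and Gatad2b) and Mbd3 higher, where 43.8% of all genes were called in either direction. Without Control replicate 1 or 2, where the lone Control library is taken to vary like the Prox1 OE libraries, it called 0 members, against 8.84% and 14.6% of all genes. At an unadjusted limma p under 0.05, Gatad2b alone was then lower in the first case, and Gatad2b lower and Mbd3 higher in the second, where 27.93% and 32.01% of all genes passed that p in either direction.

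The sign of the 3 positive differences among the members depended on the scaling of the libraries. The deposited size factors center the typical gene, so that the median of all genes was -0.02 on the log2 scale. When total counts were taken as library sizes, the median of all genes was -0.44 and that of the members -0.67, and 7 members were called lower, where 40.0% of all genes were called lower. Hdac3 (-0.34), Gatad2a (-0.40) and Mbd3 (-0.03) then took the opposite sign, while every member shifted by nearly the same amount. Since a scaling moves all genes together, the distance of the members' median from the median of all genes could hardly change. With the total count, Hdac3 lay 0.10, Gatad2a 0.05 and Mbd3 0.42 above the median of all genes, as with the deposited size factors.

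**Figure D2:**
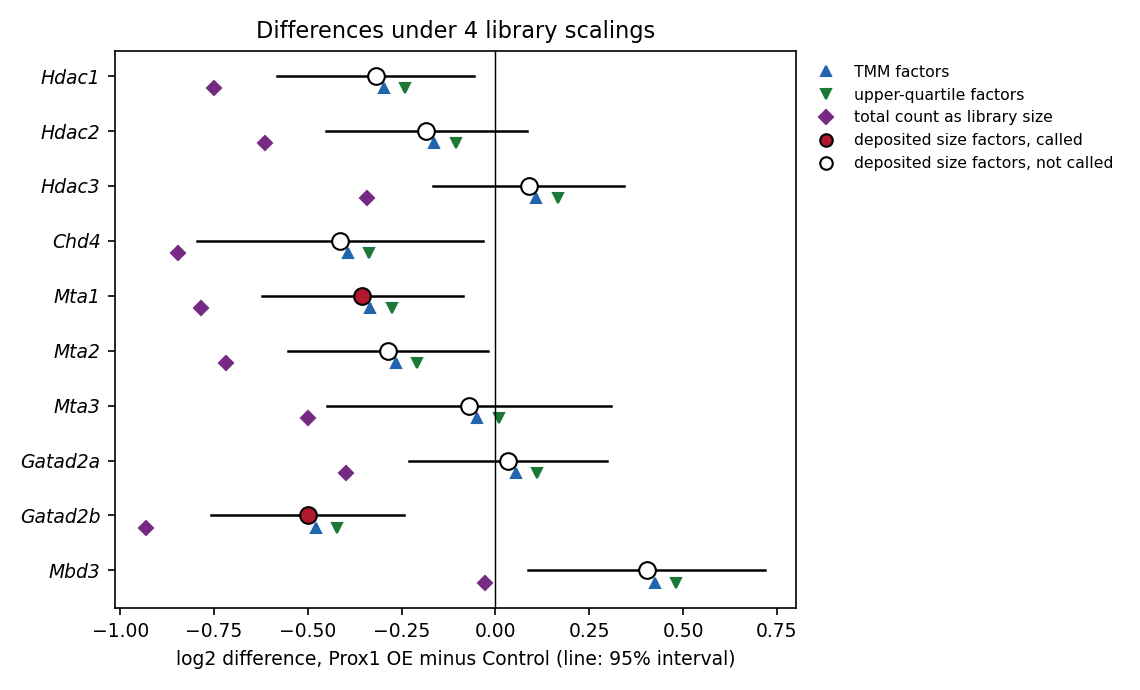
Circles give the log2 difference (Prox1 OE minus Control) of each member on the deposited size factors with its 95% interval, filled where the limma adjusted p was under 0.05, and the other symbols give it under 3 other scalings. Gatad2b (-0.50) and Mta1 (-0.35) are filled, and the total count moves every member to the left, Mbd3 to -0.03.

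Ratios between paralogs that can take each other's place in the complex do not depend on the library scaling. For 8 ratios, fixed by family and not all independent, an exact permutation test over the 10 arrangements of 2 and 3 libraries was used, two-sided, for which 0.1 is the smallest p possible. Groups did not overlap for 5 of the 8 ratios, where 63.3% of all single genes tested had groups that did not overlap. The log2 ratio of Gatad2a to Gatad2b was 0.74 and 0.82 in Control and 1.32, 1.27 and 1.35 in Prox1 OE. It was higher in 3 of 3 Prox1 OE libraries, by 0.53 (exact permutation p 0.1, adjusted over the 8 ratios 0.2).

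The log2 ratio of Mbd2 to Mbd3 was 0.18 and 0.07 in Control and -0.19, -0.44 and -0.40 in Prox1 OE. All 3 Prox1 OE libraries lay lower, with a difference of -0.47 (exact permutation p 0.1, adjusted 0.2). The scaffold ratios moved less. Mta1 to Mta3 was 0.77 and 0.98 in Control and 0.43, 0.66 and 0.70 in Prox1 OE, a difference of -0.28 (exact permutation p 0.1, adjusted 0.2), while Mta1 to Mta2 differed by -0.07 (exact permutation p 0.1, adjusted 0.2) and Mta3 to Mta2 by 0.22 (exact permutation p 0.2, adjusted 0.32). Groups overlapped for Hdac1 to Hdac2 (-0.14, exact permutation p 0.3, adjusted 0.4), Chd3 to Chd4 (0.10, exact permutation p 0.7, adjusted 0.8) and Rbbp4 to Rbbp7 (0.02, exact permutation p 1, adjusted 1). Groups fail to overlap more easily when a library is left out, and no share over all genes was counted for that case. Leaving out Prox1 OE replicate 1 gave groups that did not overlap for all 8 ratios, with differences of 0.21 for Chd3 to Chd4 and 0.15 for Rbbp4 to Rbbp7. Without Prox1 OE replicate 3 both of these were slightly negative (-0.02 and -0.04).

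**Figure D3:**
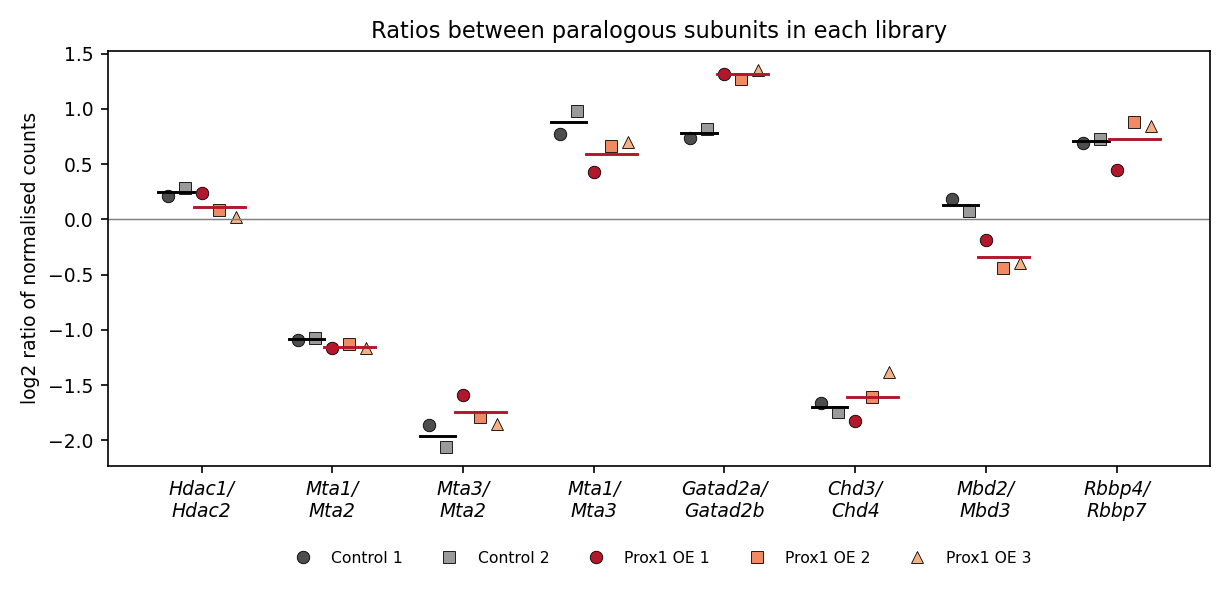
Each point is the log2 ratio of normalized counts of 2 paralogs in 1 library, with black bars for the Control mean (n = 2) and red bars for the Prox1 OE mean (n = 3). Gatad2a/Gatad2b moves from 0.78 to 1.31 and Mbd2/Mbd3 from 0.13 to -0.34, while Hdac1/Hdac2, Chd3/Chd4 and Rbbp4/Rbbp7 overlap between groups.

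Levels were compared between genes only after division by exon length. Among the 10 members, Mbd3 had the most normalized counts per kb, with 2219 ± 192 (SD, n = 2) in the Control group against 2942 ± 332 (SD, n = 3) in Prox1 OE. Hdac1 (1476), Mta2 (1468) and Chd4 (1391) followed in Control, where the range of Hdac1 overlapped those of both others and the ranges of Mta2 and Chd4 did not overlap, then Hdac3 (1233), Hdac2 (960) and Mta1 (914), the last pair also overlapping, and Gatad2a (733). Mta3 (290) and Gatad2b (208) were lowest and apart from each other. In Prox1 OE, Hdac3 (1312), Mta2 (1206), Hdac1 (1183) and Chd4 (1055) had ranges that overlapped from 1 to the next, followed by Hdac2 (843), Gatad2a (749), Mta1 (716), Mta3 (279) and Gatad2b (147). By the length of the longest transcript, Mbd3 (2653) and Hdac1 (2495) were closer together in Control. By that length Hdac1 (2000) and Mta2 (1575) stood above Hdac3 (1484) in Prox1 OE.

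Within families, Gatad2a made up 77.9% ± 0.70 (SD, n = 2) of GATAD2 normalized counts per kb in the Control group against 83.6% ± 0.40 (SD, n = 3) in Prox1 OE. Mbd3 made up 59.7% ± 1.29 (SD, n = 2) of the Mbd2 and Mbd3 sum in the Control group against 67.2% ± 2.07 (SD, n = 3) in Prox1 OE. Mta2 held 54.9% of the MTA family in Control and 54.8% in Prox1 OE, with Mta1 at 34.2% and 32.5% and Mta3 at 10.9% and 12.6%. Chd4 held 77.3% and 76.0% of the Chd3, Chd4 and Chd5 sum. Hdac1 held 60.6% of the Hdac1 and Hdac2 sum in Control and 58.4% in Prox1 OE. The shares depend on the length used, and by the longest transcript Gatad2a held 71.8% and 78.7%, and Mbd3 51.8% and 59.9%.

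**Figure D4:**
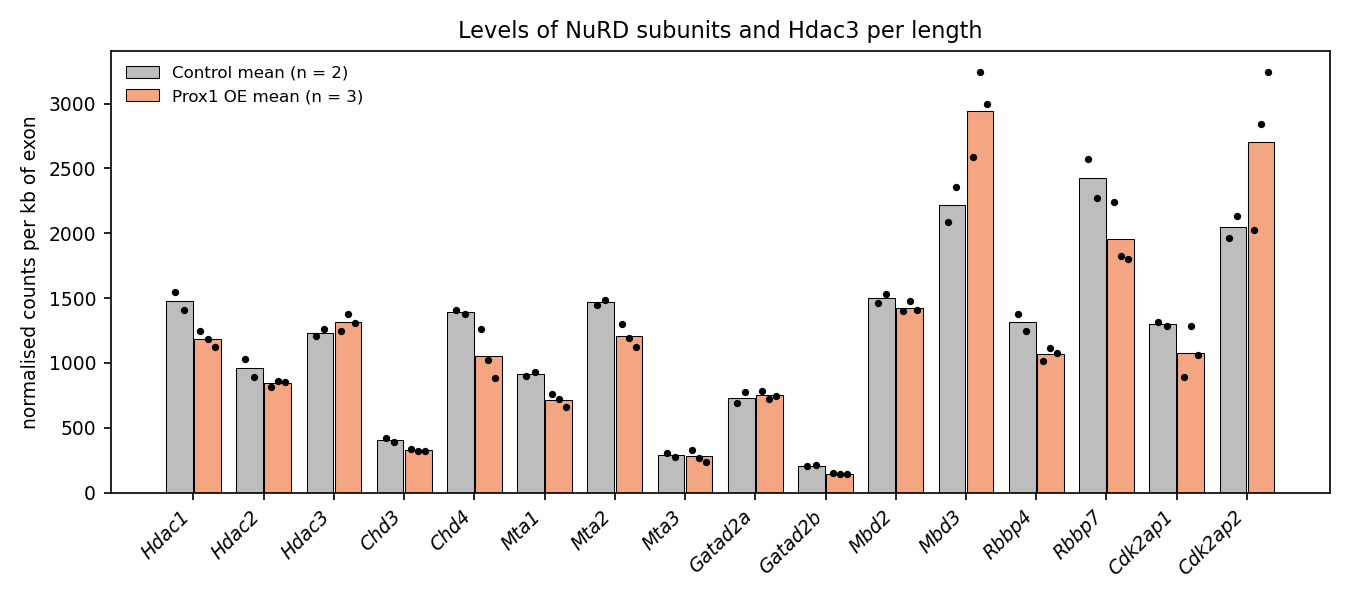
Bars give the mean normalized counts per kb of exon in Control (grey, n = 2) and Prox1 OE (orange, n = 3), and points give the libraries, for the members and for other NuRD subunits. Mbd3 stands highest among the members in both groups (2219 and 2942) and Gatad2b lowest (208 and 147).

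The other NuRD subunits gave 0 calls by limma, edgeR or DESeq2 among 7 tested, where limma called 33.3% of all genes. At an unadjusted limma p under 0.05, 2 were lower, where 22.9% of all genes were lower. Without Prox1 OE replicate 1, limma called Chd3 (adjusted p 0.031) and Rbbp7 (0.023) lower and Cdk2ap2 (0.011) higher, where 43.8% of all genes were called. With the total count as library size, 5 were called lower, where 40.0% of all genes were called lower. Their median log2 difference was -0.29. Chd3, the alternative ATPase, had 3562 and 3295 normalized counts in Control and 2846, 2690 and 2723 in Prox1 OE, with no overlap, a log2 difference of -0.32 and a limma adjusted p of 0.056. The histone-binding subunits Rbbp4 (-0.30) and Rbbp7 (-0.31) had differences of the same size, without overlap and without passing the limma test (adjusted p 0.089 and 0.12). Mbd2 (-0.07, limma adjusted p 0.63) overlapped, in contrast to the position of Mbd3. The small subunits Cdk2ap1 (-0.29, limma adjusted p 0.20) and Cdk2ap2 (0.38, limma adjusted p 0.18) lay on opposite sides, and Chd5, mainly a neuronal remodeler, had 6.94 to 50.1 normalized counts over all 5 libraries.

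Wider lists of chromatin regulators were called about as often as all genes. Over 62 genes of the other NuRD subunits, other deacetylases, corepressor complexes, NuRD-recruiting factors and histone acetyltransferases, 60 were tested, of which 5 were called higher (8.33%, against 17.1% of all genes) and 14 lower (23.3%, against 16.2%), with a median log2 difference of -0.29. In either direction this was 31.7%, against 33.3% of all genes. The naming rule of an adjusted p under 0.05 and a log2 difference of at least 1, which 13.9% of all genes met, took only Zfp827, a zinc finger protein that recruits NuRD. Zfp827 had 331 and 298 normalized counts in Control and 187, 150 and 96.1 in Prox1 OE, a log2 difference of -1.17 (SE 0.29, limma adjusted p 0.021). That call was lost without Control replicate 1 (limma adjusted p 0.14), Control replicate 2 (0.089) or Prox1 OE replicate 2 (0.059). Apart from Zfp827 and the NuRD subunits, the genes named from these lists passed the test but were chosen for naming after their values were seen.

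Of the 8 other zinc-dependent deacetylases, Hdac5 (0.54) and Hdac10 (0.52) were called higher and Hdac4 (-0.48) lower on the log2 scale. The scaffold Ncor1 (-0.56), which carries HDAC3, was called lower, whereas Hdac3 itself was not called. Of 11 SIN3 genes tested, Brms1l (-0.69), Arid4b (-0.70), Arid4a (-0.58) and Ing1 (-0.43) were called lower and Suds3 (0.45) higher. Of 7 CoREST genes, the scaffold Rcor1 (-0.74) and the demethylase Kdm1a (-0.44) were called lower and Hmg20b (0.41) higher. Among 9 NuRD-recruiting factors tested, Zmynd8 (-0.56) and Sall1 (-0.43) joined Zfp827 on the lower side and Zfpm1 (0.82) was called higher. Of 10 acetyltransferases, which act against the deacetylases, Kat6a (-0.99) and Ep300 (-0.86) were called lower. In the MiDAC complex, which also holds HDAC1 and HDAC2, limma and edgeR called 0 of 3 genes, DESeq2 called 1 lower, and 1 was lower at an unadjusted limma p under 0.05.

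**Figure D5:**
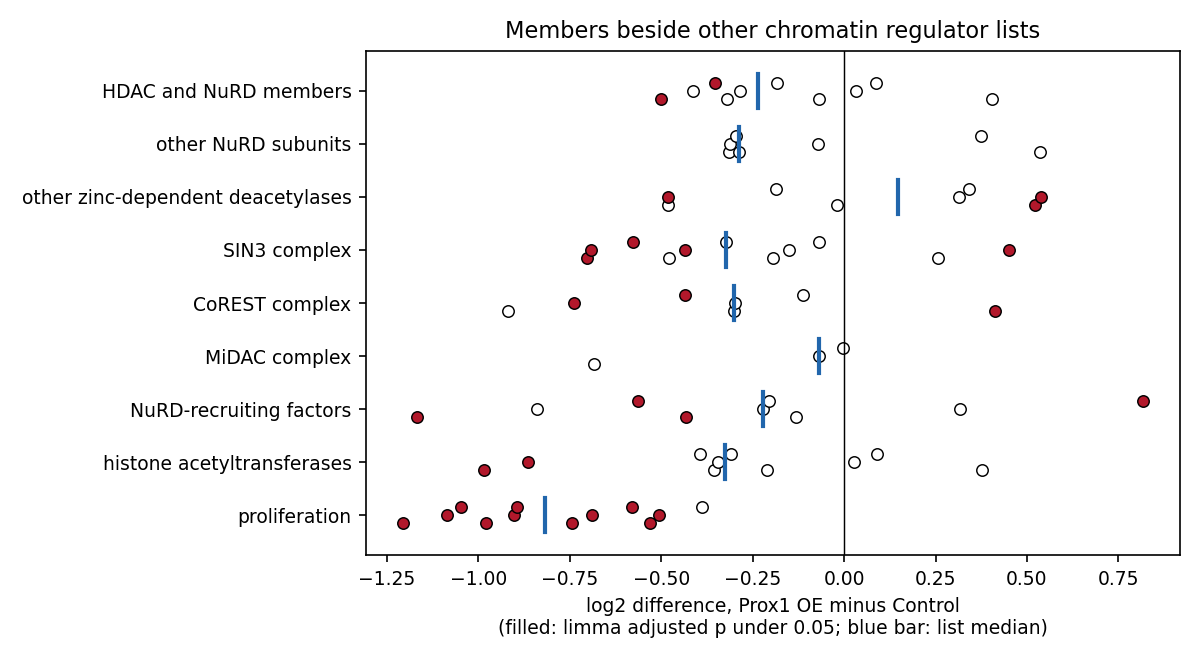
Each circle is the log2 difference of 1 gene (Prox1 OE minus Control), filled where the limma adjusted p was under 0.05, with a blue bar at the median of each list. The members lie between -0.50 and 0.40 around a median of -0.24, and of the lists shown the proliferation list lies lowest, around -0.82.

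Proliferation genes moved beside these results. Of 12 (cyclins, replication helicase and mitosis genes), 11 were called lower, with a median log2 difference of -0.82. Their summed level was 73052 and 53106 normalized counts in Control and 39784, 38939 and 30377 in Prox1 OE, without overlap. The part of this fall in the member differences was not tested.

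Across 12969 genes with a mean of at least 100 normalized counts, the profiles most like those of Chd4 and Gatad2b over the 5 libraries were found by the root-mean-square difference of centered log2 values. Nearest to Chd4 were Polr2a, the largest subunit of RNA polymerase II (0.02), Cep164 (0.02), Rab3d (0.02), Myo1d (0.03) and Rbsn (0.03). Polr2a had 5018 and 4796 normalized counts in Control and 4489, 3552 and 3160 in Prox1 OE, the same order of libraries as Chd4. Nearest to Gatad2b was Brd3, a reader of acetylated histones, at 0.01, with 3197 and 3344 normalized counts in Control and 2410, 2301 and 2238 in Prox1 OE. Zdhhc21, Pml, Pam and Socs5 followed at 0.02 to 0.03. These likenesses rest on 5 libraries and are a description only.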

How the data were processed

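The authors mapped strand-preserving (dUTP) paired reads to mm10 with STAR and divided reads per gene by DESeq2 size factors, so the deposited values are a normalized count signal per gene and library. The counting tool and its handling of reads shared between gene copies are not given in the sources used here. Another deposited table holds the authors' own comparison (fold changes and p-values) and was not used. All values were whole multiples of what 1 read is worth (0.822 to 1.18), so whole reads were recovered for 100% of values (tolerance 0.01). 0 columns were left unassigned.

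Genes with a mean of at least 10 were tested on log2(value + 1) with limma 3.58.1 (R 4.3.3, lmFit and eBayes with a trend, two-sided, Benjamini-Hochberg over all genes). This scale understates changes of low genes. Percentages of Control are ratios of geometric means. On recovered reads edgeR 4.0.16 called 5752 genes and DESeq2 1.42.0 called 6435. The limma fit was also run on simulated counts, and no result given here rests on that run. Symbols (GENCODE, GRCm38) matched 55137 of 55397 identifiers, and 7 of 10 members had an upstream RefSeq window. A result for 1 list is not reported here. The rule for the members used no value, but members and lists were chosen with earlier results of these data known. Named by rule were the members, Prox1, the other NuRD subunits, genes of the other corepressor lists with an adjusted p under 0.05 and a log2 difference of at least 1, and the 5 nearest profiles of Chd4 and of the member with the largest difference. Other list genes with an adjusted p under 0.05 were named after their values were seen. Alternatives were other scalings, pseudocounts (0.1 and 10), filters, tools, a replicate block and leaving out each library.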

Additional observations from a re-analysis of the deposited data

How the results depend on the processing

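With 2 Control libraries, either of which ended every member call when left out, calls near the threshold were fragile. How far depth limits the calls was not tested. Members called lower numbered 2, but 1 with TMM factors, upper-quartile factors, no filter, limma without the trend or the replicate block (Gatad2b each time), 7 with the total count, and 0 to 5 with each library left out. Members called higher numbered 0, but 1 with upper-quartile factors or DESeq2, and 0 to 1 with each library left out. Of the other chromatin regulators, 5 were higher and 14 lower, but 0 and 38 with the total count, 2 and 6 without the trend, and 3 higher under the replicate block; leaving out libraries gave 0 to 8 higher and 0 to 22 lower. Prox1 gave 1.90 and passed with edgeR (2.35), under the replicate block (2.39) and without Prox1 OE replicate 1 or 3 (1.12 to 2.39). Ratios without overlap numbered 5 (5 to 8 with each library left out).

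Signs turned with the total count for Hdac3 (-0.34), Gatad2a (-0.40), Mbd3 (-0.028), Cdk2ap2 (-0.056) and Hmg20b (-0.018), with upper-quartile factors for Mta3 (0.0084) and Mbd2 (0.0077), under the replicate block for Mta3 (0.036), and with 1 library left out for Mta3 (range -0.20 to 0.036), Gatad2a (range -0.054 to 0.12, negative without Control replicate 1) and Chd5 (range -0.077 to 1.27, negative without Prox1 OE replicate 1). Over the named genes, 466 values kept direction and side of the threshold, 93 lost a call, 19 gained one and 12 changed sign; the causes were not tested. The 64 alternative values of the ratio differences moved by less than 1 SD between replicates, though some small differences changed by more than their own size. Replicate numbers are not tied to animals, and same-numbered libraries correlated at 0.14 and 0.02 over 17105 genes (deviations from group means), so the block, which drops Prox1 OE replicate 3, is given here only. By the longest transcript, shares in Prox1 OE moved for Hdac1 (63.3%), Mta1 (28.0%), Gatad2a (78.7%), Mbd2 (40.1%) and Rbbp4 (44.3%).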
